A study of Mus musculus with 12 samples.

Results

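The interferon regulatory factors (IRFs) were followed across 12 RNA libraries of mouse blood progenitors. The set was chosen by gene name: Irf1, Irf2, Irf3, Irf4, Irf5, Irf7, Irf8 and Irf9, with Irf2bpl, which encodes an IRF2-binding protein-like factor and is no IRF itself. These 9 members were looked up among the 54532 genes of the count table, all 9 were present, and all 9 passed the filter on low counts that left 15003 genes for testing. The RNA came from haematopoietic stem and progenitor cells sorted from fresh mouse bone marrow as lineage-negative, cKit-positive (Lin-cKit+) cells. RH MET cells carried the floxed Dnmt3a fl-R878H allele over a normal allele and came from mice given metformin for 1 month, RH VEH cells had the same genotype with vehicle, WT MET cells were Dnmt3a+/+ with metformin, and WT VEH cells were Dnmt3a+/+ with vehicle. Each group held 3 libraries. All 4 groups shared the C57BL/6 background, the in vivo competition setting and the Mx1-cre transgene, in which the Mx1 promoter, itself an interferon-inducible promoter, drives Cre. An inducer, the age of the animals and the host of the competition are not given in the sources used here. Per the labels, each treatment group had 2 animals, and which library came from which animal is not stated. The p-values therefore speak only of variation among libraries, part of which may be technical.

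Interferon regulatory factors are transcription factors that bind interferon-responsive DNA elements. Some of them (IRF3, IRF5 and IRF7) wait in the cytoplasm until sensors of viral or bacterial molecules activate them and they turn on interferon genes. Secreted interferons then act through their receptors, JAK kinases and STAT proteins to form ISGF3, in which IRF9 is the DNA-binding subunit, and to induce IRF1, an activator that IRF2 counteracts. IRF8 and IRF4 are best known in blood formation, where IRF8 directs progenitors towards monocytes and dendritic cells and IRF4 acts in B cells, plasma cells and T cells.

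Promoter windows of the 250 bases before the annotated start are shown for 4 members: Irf1 and Irf2bpl because their levels differed most between the genotypes, Irf2 as the antagonist of IRF1, and Irf8 as the member with the highest level. The sequences are from RefSeq for the build GRCm38.p6, read 5′ to 3′ on the strand of the gene, and all 9 members matched an entry, with 12 windows between them. Capitals mark matches to 3 motifs searched on both strands. These were the ISRE core GAAANNGAAA of IRFs and ISGF3, the interferon gamma-activated site (GAS) TTCNNNGAA, and the NF-kB pattern GGRRNNYYCC. N is any base, R is A or G, and Y is C or T.

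Irf1, chr11:53769764-53770013, plus strand: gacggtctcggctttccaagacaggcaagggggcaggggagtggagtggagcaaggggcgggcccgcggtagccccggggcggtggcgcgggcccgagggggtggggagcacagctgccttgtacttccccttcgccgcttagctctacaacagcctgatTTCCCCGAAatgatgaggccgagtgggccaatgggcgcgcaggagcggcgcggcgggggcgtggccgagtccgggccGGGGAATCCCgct
Irf2bpl, chr12:86884815-86885064, minus strand: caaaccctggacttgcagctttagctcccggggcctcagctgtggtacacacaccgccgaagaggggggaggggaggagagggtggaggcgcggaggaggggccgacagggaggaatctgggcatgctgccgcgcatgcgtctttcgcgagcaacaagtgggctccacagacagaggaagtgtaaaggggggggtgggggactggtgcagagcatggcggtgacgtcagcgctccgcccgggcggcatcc
Irf2, chr8:46739495-46739744, plus strand: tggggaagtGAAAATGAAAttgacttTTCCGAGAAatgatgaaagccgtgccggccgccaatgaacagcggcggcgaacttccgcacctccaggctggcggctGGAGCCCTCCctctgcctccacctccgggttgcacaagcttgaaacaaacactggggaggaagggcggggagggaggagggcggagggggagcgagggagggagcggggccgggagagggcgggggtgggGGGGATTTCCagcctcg
Irf8, chr8:120736108-120736357, plus strand: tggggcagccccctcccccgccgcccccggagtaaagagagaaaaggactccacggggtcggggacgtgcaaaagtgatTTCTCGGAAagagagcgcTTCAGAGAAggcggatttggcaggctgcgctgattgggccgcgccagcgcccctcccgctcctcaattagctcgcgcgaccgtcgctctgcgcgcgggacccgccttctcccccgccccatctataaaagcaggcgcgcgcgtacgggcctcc

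The Irf1 window held 1 GAS match, TTCCCCGAA, whose first base lay 90 bases before the start, and 1 NF-kB match, GGGGAATCCC, at 13 bases. Irf2 held the only ISRE match of the members, GAAAATGAAA at 241 bases, followed by a GAS match, TTCCGAGAA at 224 bases, that did not overlap it, and 2 NF-kB matches. Irf8 held 2 GAS matches, the first TTCTCGGAA at 171 bases. The Irf2bpl window and the windows of Irf3, Irf4, Irf5, Irf7 and Irf9 held none of the 3 motifs, and neither did the second annotated windows of Irf1 and Irf8. Of 32841 mouse promoter windows of the same length, 2.98% held an ISRE match, 7.02% a GAS match and 9.55% an NF-kB match. A match is a description of these letters, not of binding.

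Levels are given as CPM, the counts scaled to a library's effective size by the trimmed mean of M values (TMM), and per gene length as RPKM where genes are compared with each other. Totals were 13359583 to 21938003 counts per library. Libraries RH VEH 2 and WT MET 2 stood apart, with 40.8% and 33.3% of their counts on mitochondrial genome genes against 1.57% to 4.32% in the other 10, and 1 CPM stood for 8.37 and 9.86 reads there against 17 to 24.8 elsewhere. The 6 libraries found in both deposited tables are called round 1 (RH MET 1 and 2, RH VEH 1, WT MET 1, WT VEH 1 and 2) and the other 6 round 2. Library numbers are those of the count table, which for several columns fix the group and not the exact sample. The sort was checked against its markers: Kit stood at 118 to 200 CPM and the T cell gene Cd3e at 0.378 to 3.08 CPM, but genes of mature lineages were also high, with the neutrophil gene S100a9 at 174 to 1257 CPM, the myeloid gene Lyz2 at 65.5 to 571 CPM and the plasma cell gene Jchain at 297 to 548 CPM. In these bulk samples, fewer cells of a type and less RNA per cell cannot be told apart.

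Per gene length, Irf8 had the highest median over the 12 libraries at 17.2 RPKM, then Irf3 at 15.6, Irf9 at 12.9, Irf1 at 11.8, Irf7 at 7.09, Irf2 at 4.92, Irf5 at 4.23, Irf2bpl at 2.09 and Irf4 at 1.60 RPKM. The ranges of all 8 neighbouring pairs in this order overlapped. The order of a pair held in all 12 libraries only for Irf5 above Irf2bpl, while Irf9 stood above Irf1, and Irf2 above Irf5, in 7 of 12. The plot of levels per gene length shows these ranges. The spread over libraries, as the coefficient of variation of the level, was smallest for Irf9 at 10.7% and Irf2 at 12.7%, and largest for Irf2bpl at 32.8%, Irf1 at 29.8% and Irf4 at 29.6%.

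**Figure D1:**
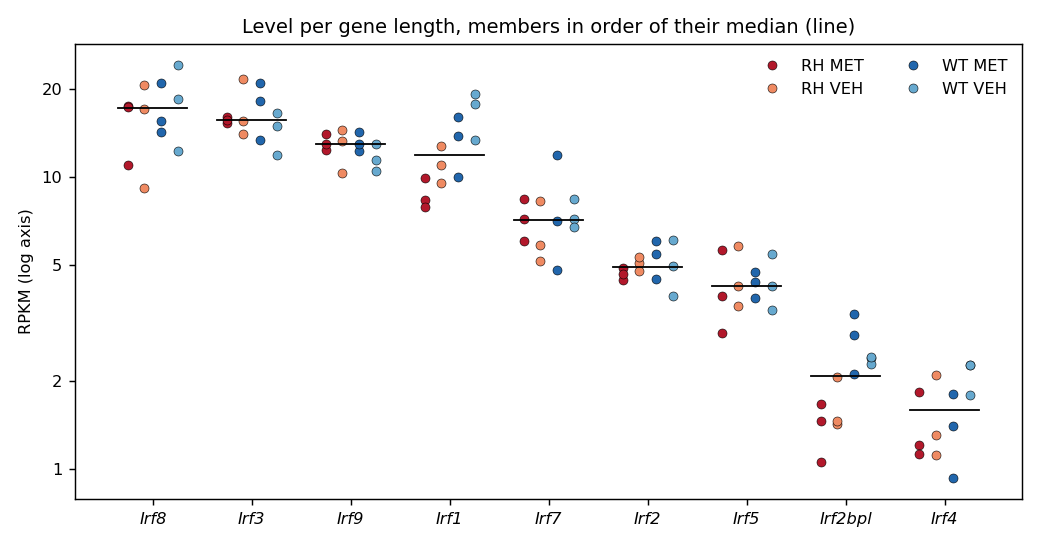
Level per gene length of the 9 members in the 12 libraries, in RPKM on a log axis, with points coloured by group and a line at the median of the 12. The medians run from 17.2 RPKM for Irf8 to 1.60 RPKM for Irf4, and the points of neighbouring genes overlap.

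Irf1, the activator induced by interferon gamma and NF-kB, and the IRF2-binding protein-like gene Irf2bpl stood lower in RH than in WT cells. This held under metformin and under vehicle, with no overlap between the groups within either treatment. Of all genes tested, 8.94% were lower without overlap under metformin and 3.23% under vehicle. The other 7 members overlapped between the genotypes under both treatments. Neither gene passed the adjusted test over all genes, so these are differences in level that the main test did not call.

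Irf1 (ENSMUSG00000018899, chr11:53770014-53778374, mm10, plus strand) stood at 39.3, 33.1 and 31.4 CPM in RH MET 1, 2 and 3, and at 37.8, 50.5 and 43.5 CPM in RH VEH 1, 2 and 3. It stood at 63.9, 54.9 and 39.6 CPM in WT MET 1, 2 and 3, and at 76.3, 70.6 and 52.9 CPM in WT VEH 1, 2 and 3. The 3 RH MET libraries were low and close together, WT VEH 1 and 2 were highest, and the highest RH MET library lay just below WT MET 3, with 95% Poisson intervals of 36.6 to 42.2 CPM for RH MET 1 and 36.8 to 42.5 CPM for WT MET 3. Under vehicle the narrowest gap was between RH VEH 2 and WT VEH 3. Their 95% Poisson intervals overlapped too, at 45.8 to 55.6 and 49.8 to 56.2 CPM. Group means were 34.6 ± 4.19 in RH MET, 43.9 ± 6.39 in RH VEH, 52.8 ± 12.3 in WT MET and 66.6 ± 12.2 CPM in WT VEH (SD, n = 3 each).

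The log2 fold change of Irf1 was −0.67 ± 0.192 (SE) for RH MET against WT MET and −0.51 ± 0.197 for RH VEH against WT VEH. Averaged over both treatments it was −0.59 ± 0.132, with a 95% interval of −0.88 to −0.30, which is 0.664 of the WT level. The unadjusted p was 0.0041, 0.0226 and 0.0007 and the adjusted p 0.738, 0.977 and 0.677 in edgeR's quasi-likelihood test. Over all 12 libraries the genotypes overlapped: 4 of 6 RH libraries lay below the lowest WT library, and 5 of 6 WT libraries above the highest RH library.

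The rounds differed in size. In round 1 Irf1 stood at 33.1 to 39.3 CPM in 3 RH libraries and 63.9 to 76.3 CPM in 3 WT libraries, and in round 2 at 31.4 to 50.5 CPM in 3 RH and 39.6 to 54.9 CPM in 3 WT libraries, which overlapped. The fitted mean genotype difference was −0.89 in round 1 alone and −0.39 in round 2 alone. Under vehicle it was −0.97 in round 1 and −0.21 in round 2. RH VEH 1 was the only RH VEH library of round 1, and WT VEH 3 the only WT VEH library of round 2. Without RH VEH 1 the vehicle difference was −0.25 (edgeR quasi-likelihood unadjusted p = 0.231). Without the 2 libraries rich in mitochondrial transcripts the mean difference was −0.62.

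Irf2bpl (ENSMUSG00000034168, chr12:86880701-86884798, mm10, minus strand) encodes a nuclear protein with a RING-type domain. It stood at 6.84, 5.99 and 4.35 CPM in RH MET 1, 2 and 3, and at 5.85, 5.97 and 8.46 CPM in RH VEH 1, 2 and 3. It stood at 13.9, 11.8 and 8.64 CPM in WT MET 1, 2 and 3, and at 9.82, 9.36 and 9.92 CPM in WT VEH 1, 2 and 3. All 6 RH libraries lay below all 6 WT libraries. The gap at its narrowest, between RH VEH 3 and WT MET 3, was smaller than counting error, with 95% Poisson intervals of 7.24 to 9.82 and 7.36 to 10.1 CPM. The gene held 50 to 235 counts a library.

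Group means of Irf2bpl were 5.73 ± 1.27 in RH MET, 6.76 ± 1.47 in RH VEH, 11.4 ± 2.62 in WT MET and 9.70 ± 0.297 CPM in WT VEH (SD, n = 3 each). The log2 fold change was −1.05 ± 0.261 (SE) for RH MET against WT MET, −0.46 ± 0.261 for RH VEH against WT VEH and −0.75 ± 0.178 over both, with a 95% interval of −1.14 to −0.37, which is 0.593 of the WT level. The unadjusted p was 0.0015, 0.105 and 0.00107 and the adjusted p 0.738, 0.977 and 0.677 in edgeR's quasi-likelihood test. The genotypes did not overlap in round 1 or in round 2, and the mean difference was −0.92 in round 1 alone and −0.84 in round 2 alone. Under vehicle it was −0.22 without RH VEH 1.

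**Figure D2:**
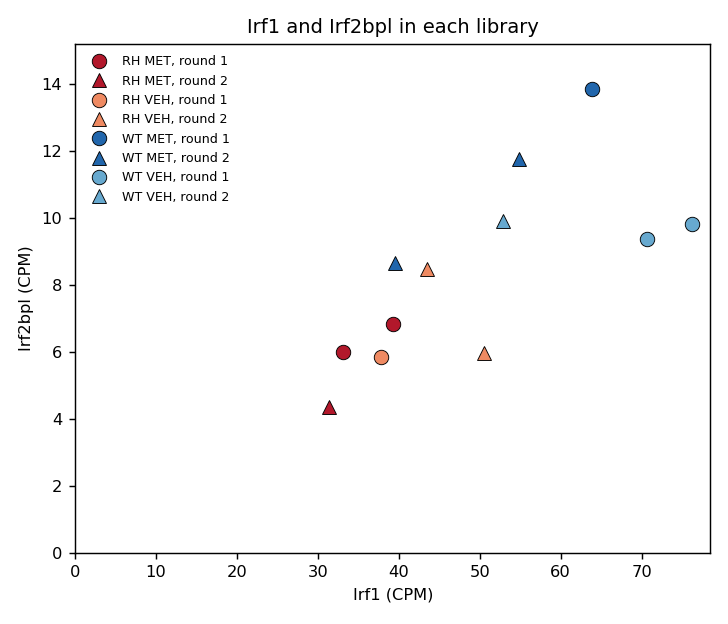
Irf1 against Irf2bpl in CPM in each of the 12 libraries, coloured by group, with circles for round 1 and triangles for round 2. The 6 RH libraries lie below 8.46 CPM or at it for Irf2bpl and the 6 WT libraries at 8.64 CPM or above, while on the Irf1 axis WT MET 3 falls among the RH libraries.

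Read against all genes, the counts of members are as follows. Under metformin, 0 members passed the adjusted threshold, against 0.00667% of all genes tested, 2 had an unadjusted p under 0.05, against 5.78%, and 2 were lower with no overlap, against 8.94% of genes lower and 7.97% higher. Under vehicle, 0 members passed the adjusted threshold, against 0% of genes, 1 had an unadjusted p under 0.05, against 2.03%, and 2 were lower with no overlap, against 3.23% lower and 2.71% higher. Averaged over treatments, 0 members passed, against 0.00667%, and 2 had an unadjusted p under 0.05, against 2.65%. With 6 libraries a genotype, only Irf2bpl did not overlap, against 0.0733% of genes lower and 0.02% higher. DESeq2 called both Irf1 (adjusted p = 0.0323) and Irf2bpl (adjusted p = 0.0490) in the mean genotype comparison, where it called 0.154% of 12967 genes. The edgeR test with no filter on low counts called Irf1 (adjusted p = 0.00507) among 0.432% of 27530 genes.

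The remaining members did not separate the genotypes. Irf2, which represses IRF1 targets, stood at 32.7 to 36.0 CPM in RH MET and 35.3 to 39.2 CPM in RH VEH, against 33.1 to 44.4 CPM in WT MET and 28.9 to 44.9 CPM in WT VEH. Its mean genotype difference was −0.08 on the log2 scale, with a 95% interval of −0.35 to 0.18. The interval for Irf1 lay below 0 throughout, and the difference between these 2 genes was not tested.

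Irf3, Irf7 and Irf5 carry the signal of innate immune sensors, and Irf9 that of the interferon receptor. Irf3 stood at 52.5, 55.3 and 54.0 CPM in RH MET 1, 2 and 3 and at 53.5, 74.1 and 48.3 CPM in RH VEH 1, 2 and 3, against 46.0, 72.2 and 62.7 CPM in WT MET 1, 2 and 3 and 56.7, 40.8 and 51.2 CPM in WT VEH 1, 2 and 3. Its 2 highest libraries were RH VEH 2 and WT MET 2, the pair rich in mitochondrial transcripts. Irf9 kept within 55.4 to 77.5 CPM over all 12 libraries, the narrowest relative range of the members, with a mean genotype difference of 0.05 (95% interval −0.16 to 0.27).

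Irf7, which interferon itself induces, stood at 27.1, 22.7 and 31.8 CPM in RH MET 1, 2 and 3 and at 22.1, 19.5 and 31.2 CPM in RH VEH 1, 2 and 3, against 26.6, 18.1 and 45.0 CPM in WT MET 1, 2 and 3 and 27.0, 31.7 and 25.4 CPM in WT VEH 1, 2 and 3. Both the lowest and the highest of the 12 libraries were WT MET. The log2 fold change of RH MET against WT MET was −0.09. It was −0.33 without WT MET 2 and 0.29 without WT MET 3. Irf5 stood at 8.48 to 16.3 CPM in RH MET and 10.5 to 16.8 CPM in RH VEH, against 11.2 to 13.7 CPM in WT MET and 10.1 to 15.8 CPM in WT VEH, with a mean genotype difference of −0.01 (95% interval −0.37 to 0.36).

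Irf8, the myeloid and dendritic lineage factor, stood at 77.6, 123 and 122 CPM in RH MET 1, 2 and 3 and at 120, 64.5 and 145 CPM in RH VEH 1, 2 and 3, against 109, 100 and 148 CPM in WT MET 1, 2 and 3 and 130, 86.4 and 171 CPM in WT VEH 1, 2 and 3. Apart from RH VEH 2 and WT MET 2, the round 2 libraries stood at 122 to 171 CPM and the round 1 libraries at 77.6 to 130.2 CPM. The mean genotype difference was −0.17 (95% interval −0.66 to 0.32), with 0.01 in round 1 alone and −0.36 in round 2 alone. Summed levels of 12 monocyte markers ranged more widely than Irf8, 618 to 1006 CPM in RH MET and 231 to 860 CPM in RH VEH, against 300.3 to 786 CPM in WT MET and 469 to 1133 CPM in WT VEH, with the lowest values, 231 and 300.3 CPM, in RH VEH 2 and WT MET 2. Summed levels of 15 dendritic cell markers were 304 to 442 CPM in RH MET and 338 to 488 CPM in RH VEH, against 426 to 451 CPM in WT MET and 364 to 514 CPM in WT VEH. The myeloid gene Lyz2 made up 65.5 to 571 CPM of the monocyte sums. The part of the monocyte and dendritic cell markers in the Irf8 level was not tested.

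Irf4, the lymphoid factor, was the member with the lowest level per length. It stood at 8.97, 5.93 and 5.51 CPM in RH MET 1, 2 and 3 and at 6.41, 5.50 and 10.3 CPM in RH VEH 1, 2 and 3, against 8.85, 6.90 and 4.56 CPM in WT MET 1, 2 and 3 and 11.1, 8.78 and 11.2 CPM in WT VEH 1, 2 and 3. WT VEH was the highest group on average, at 10.3 CPM, and still overlapped RH VEH and WT MET. The mean genotype difference was −0.23 (95% interval −0.71 to 0.25). The gene held 46 to 231 counts a library. Summed levels of the 14 B cell markers were 329 to 606 CPM in RH MET and 539 to 602 CPM in RH VEH. They were 504 to 557 CPM in WT MET and 358 to 545 CPM in WT VEH. Most of each sum was the plasma cell gene Jchain, at 297 to 548 CPM over the 12 libraries. The part of these markers in the Irf4 level was not tested.

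**Figure D3:**
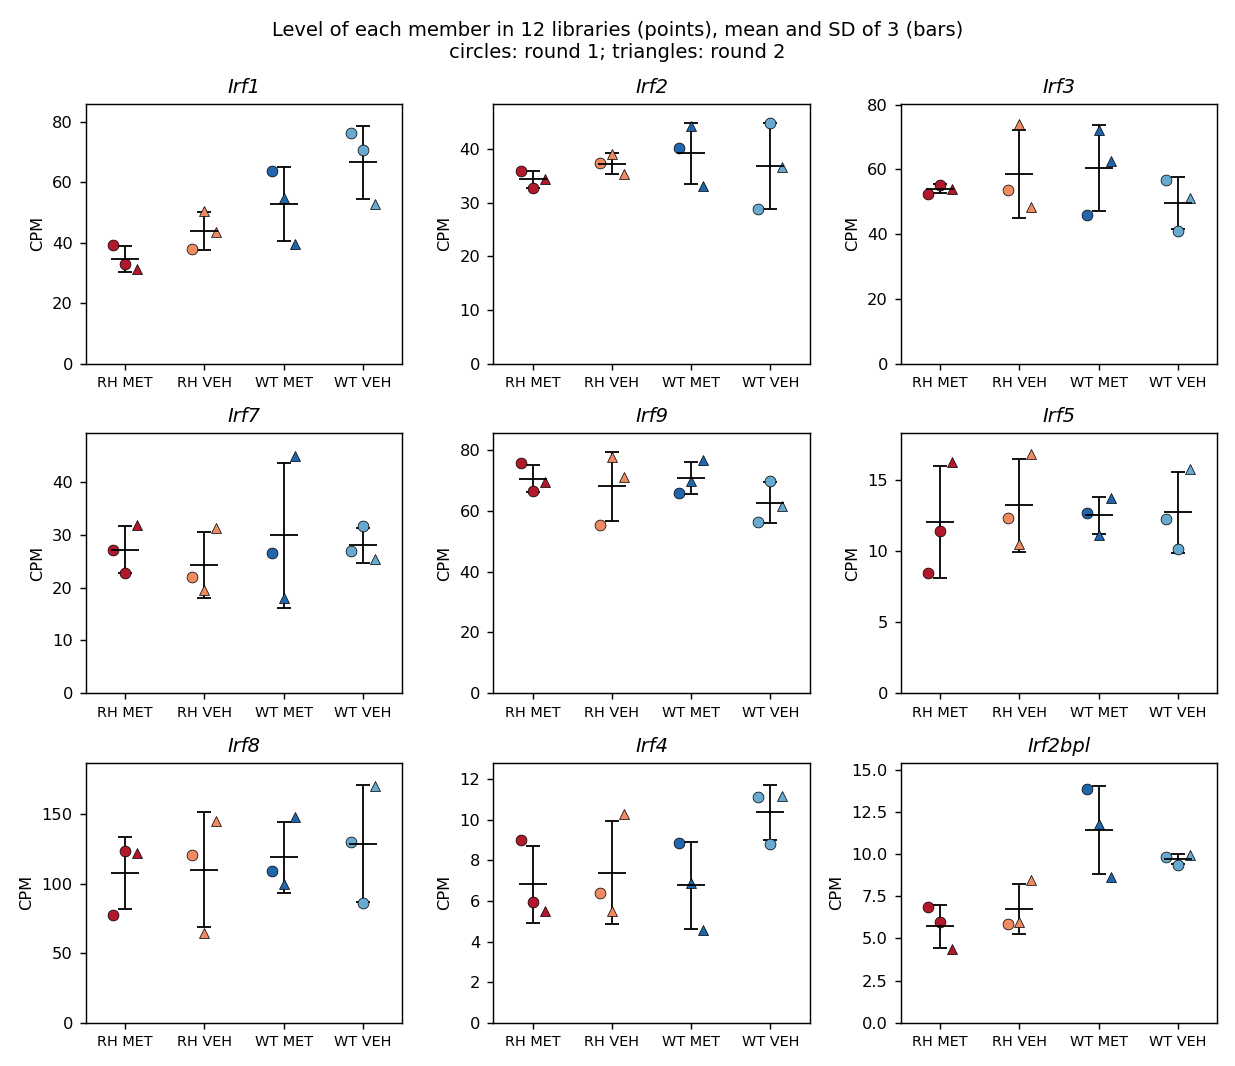
Level of each member in CPM by group, with 1 point per library (circles for round 1, triangles for round 2) and bars for the mean and SD of 3. Irf1 and Irf2bpl are lower in RH MET than in WT MET and lower in RH VEH than in WT VEH with no overlap, and the other 7 members overlap. Of all genes tested, 8.94% were lower without overlap in the first comparison and 3.23% in the second.

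Metformin was compared with vehicle within each genotype. No member separated the treatments without overlap. In RH cells, 1 member, Irf1, had an unadjusted p under 0.05, against 2.43% of genes, 0 passed the adjusted threshold, against 0%, and 0 did not overlap, against 4.11% higher and 2.81% lower. In WT cells, 0 members had an unadjusted p under 0.05, against 4.03%, 0 passed, against 0%, and 0 did not overlap, against 4.98% higher and 4.4% lower. Averaged over genotypes, 1 member had an unadjusted p under 0.05, against 1.63%, 0 passed, against 0%, and 0 did not overlap, against 0.0667% higher and 0.00667% lower.

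Irf1 was lower under metformin on average, with a log2 fold change of −0.43 ± 0.195 in RH cells, −0.27 ± 0.192 in WT cells and −0.35 ± 0.132 (SE) over both. The last had an unadjusted p of 0.0213 and an adjusted p of 1 in edgeR's quasi-likelihood test, and was −0.14 in round 1 alone and −0.38 in round 2 alone. Irf4 followed with −0.58 ± 0.319 in WT cells (unadjusted p = 0.0912 in the same edgeR fit). Its mean metformin difference of −0.39 was 0.02 in round 1 alone and −0.76 in round 2 alone. Irf2bpl was at −0.32 ± 0.267 in RH cells and 0.28 ± 0.254 in WT cells. In RH cells its sign differed by round, with 0.13 in round 1 alone and −0.72 in round 2 alone. In WT cells the value was 0.52 in round 1 alone and 0.01 in round 2 alone. Within a round, 1 side of each contrast within a genotype was 1 library. These were RH VEH 1 and WT MET 1 in round 1, and RH MET 3 and WT VEH 3 in round 2. Round 2 also held RH VEH 2 and WT MET 2, the libraries rich in mitochondrial transcripts.

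The difference between the metformin effects of the genotypes was tested as an interaction. It was −0.60 ± 0.379 (SE) for Irf2bpl (edgeR quasi-likelihood unadjusted p = 0.141) and −0.16 ± 0.283 for Irf1 (unadjusted p = 0.581 in the same edgeR fit). No member had an unadjusted p under 0.05, against 6.21% of genes, and 0 passed the adjusted threshold, against 0%. The intervals were wide, −1.42 to 0.23 for Irf2bpl and −0.77 to 0.45 for Irf1.

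**Figure D4:**
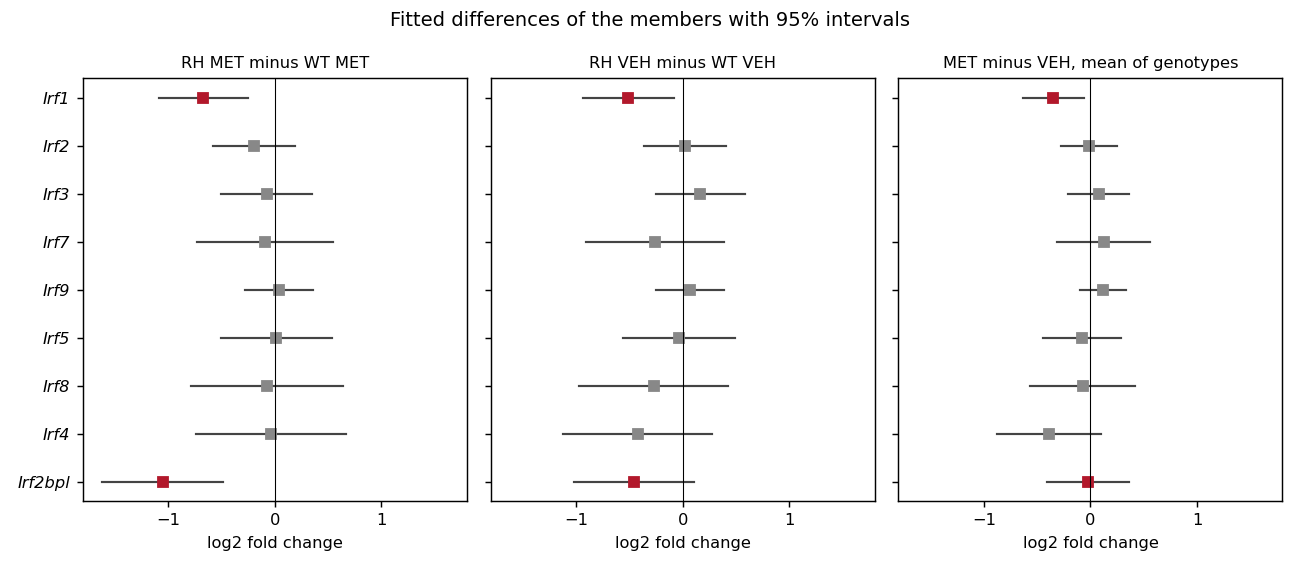
Fitted log2 fold changes of the 9 members with 95% intervals, for RH MET against WT MET, RH VEH against WT VEH, and metformin against vehicle averaged over the genotypes. Red squares mark Irf1 and Irf2bpl, whose values are −0.67 and −1.05 in the first panel and −0.51 and −0.46 in the second.

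Other genes of the pathway were read from lists of sensors, interferons, receptors and targets. No listed gene passed the adjusted threshold in any of the 7 comparisons. The 20 interferon genes were near or at 0: type I and type III interferons had no count in 9 to 12 of the libraries, and Ifng alone passed the filter on low counts. Ifng, the type II interferon made by T and NK cells, stood at 0.545, 0.755 and 1.25 CPM in RH MET 1, 2 and 3 and at 3.03, 1.19 and 2.85 CPM in RH VEH 1, 2 and 3, against 3.36, 3.25 and 4.08 CPM in WT MET 1, 2 and 3 and 3.04, 2.24 and 2.13 CPM in WT VEH 1, 2 and 3. The 3 RH MET libraries lay below all WT libraries, and RH VEH overlapped WT VEH. The log2 fold change was −2.04 ± 0.437 (SE) for RH MET against WT MET and −0.04 ± 0.417 for RH VEH against WT VEH (edgeR adjusted p = 0.738 and 0.993).

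Markers of T and NK cells moved with Ifng. Their summed level over 18 genes was 33.4 to 72.5 CPM in RH MET and 84.1 to 135 CPM in RH VEH, against 95.1 to 122 CPM in WT MET and 69.9 to 115 CPM in WT VEH, and no marker of the list was at 0 in any library. Of the 18, 0 were higher and 18 lower in RH MET than in WT MET, with a median log2 fold change of −1.25, and 10 were higher and 8 lower in RH VEH than in WT VEH, with a median of 0.09. Irf1 was at −0.67 for RH MET against WT MET and at −0.51 for RH VEH against WT VEH. Without RH VEH 1 the latter was −0.25. Over all genes tested the median was −0.02 under metformin and 0.00 under vehicle. The list of 16 granulocyte genes was 16 higher and 0 lower under metformin (median 0.92) and 2 higher and 14 lower under vehicle (median −0.58). RH VEH 2 and WT MET 2 had the lowest granulocyte sums, 1621 and 1533 CPM against 3568 to 7608 CPM in the other 10 libraries, and without them the list was 14 higher and 2 lower under metformin (median 0.66) and 4 higher and 12 lower under vehicle (median −0.21). The T and NK medians without them were −1.15 and 0.12. The part of either cell type in the levels of Irf1 and Irf2bpl was not tested.

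Of 22 tested targets of IRF1 and IRF2, which include guanylate-binding proteins, immunoproteasome subunits and antigen transporters, 7 were higher and 15 lower in RH over both treatments, with a median log2 fold change of −0.07 against 0.00 for all genes tested. The smallest unadjusted p belonged to Cxcl10, a chemokine, at −0.74 ± 0.212 (SE, edgeR adjusted p = 1.00), and Gbp2, a guanylate-binding protein, at −0.54 ± 0.238. Cxcl10 stood at 8.88, 4.15 and 3.22 CPM in RH MET 1, 2 and 3 and at 7.08, 4.06 and 3.79 CPM in RH VEH 1, 2 and 3, against 12.2, 4.67 and 5.15 CPM in WT MET 1, 2 and 3 and 10.4, 11.6 and 8.56 CPM in WT VEH 1, 2 and 3. RH VEH lay below WT VEH without overlap, and RH MET overlapped WT MET.

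ISGF3 targets, the antiviral genes downstream of IRF9, numbered 27 tested: 12 were higher and 15 lower in RH, with a median of −0.02. The 2 of smallest unadjusted p were Ifit2, an RNA-binding antiviral protein, at 0.18 ± 0.116 and Ifi35 at −0.19 ± 0.129 (SE). Under metformin, averaged over genotypes, 19 were higher and 8 lower, with a median of 0.07 against −0.01 for all genes tested. Ly6a, which encodes the stem cell antigen Sca-1 and is also a marker in the Lin-cKit+ list, was at −0.48 ± 0.200, and Ifit1 at 0.67 ± 0.315.

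Receptors, JAK kinases, STAT factors and their inhibitors numbered 19, of which 9 were higher and 10 lower in RH, with a median of −0.01. Socs3, an inhibitor of cytokine receptor signalling, was at −0.60 ± 0.253 (SE) in RH against WT, averaged over treatments. For metformin against vehicle, averaged over genotypes, Socs3 was at −0.74 ± 0.253. Ifnlr1, a type III interferon receptor chain, was at 0.87 ± 0.436 in RH against WT. Sensors, adaptors and kinases upstream of IRF3, IRF5 and IRF7 numbered 18, of which 8 were higher and 10 lower, with a median of −0.02 and values of 0.14 ± 0.091 for the kinase Tbk1 and 0.12 ± 0.124 for the ligase Traf6.

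Partners of IRF4 and IRF8, such as the ETS and BATF factors, numbered 16, of which 3 were higher and 13 lower in RH, with a median of −0.19. Without RH VEH 2 and WT MET 2, 4 were higher and 12 lower, with a median of −0.12. The 2 of smallest unadjusted p were Klf4, a myeloid factor, at −0.28 ± 0.149 and Batf3, a dendritic cell factor, at −0.86 ± 0.562 (SE). Batf3 was near the floor, at 0 to 1.42 CPM over the 12 libraries with a median of 0.424. The related genes Irf2bp1 and Irf2bp2, which encode corepressors that bind IRF2, were at −0.13 ± 0.103 and −0.17 ± 0.097. They stood at 44.3 to 61.8 and 106.9 to 154 CPM over the 12 libraries.

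**Figure D5:**
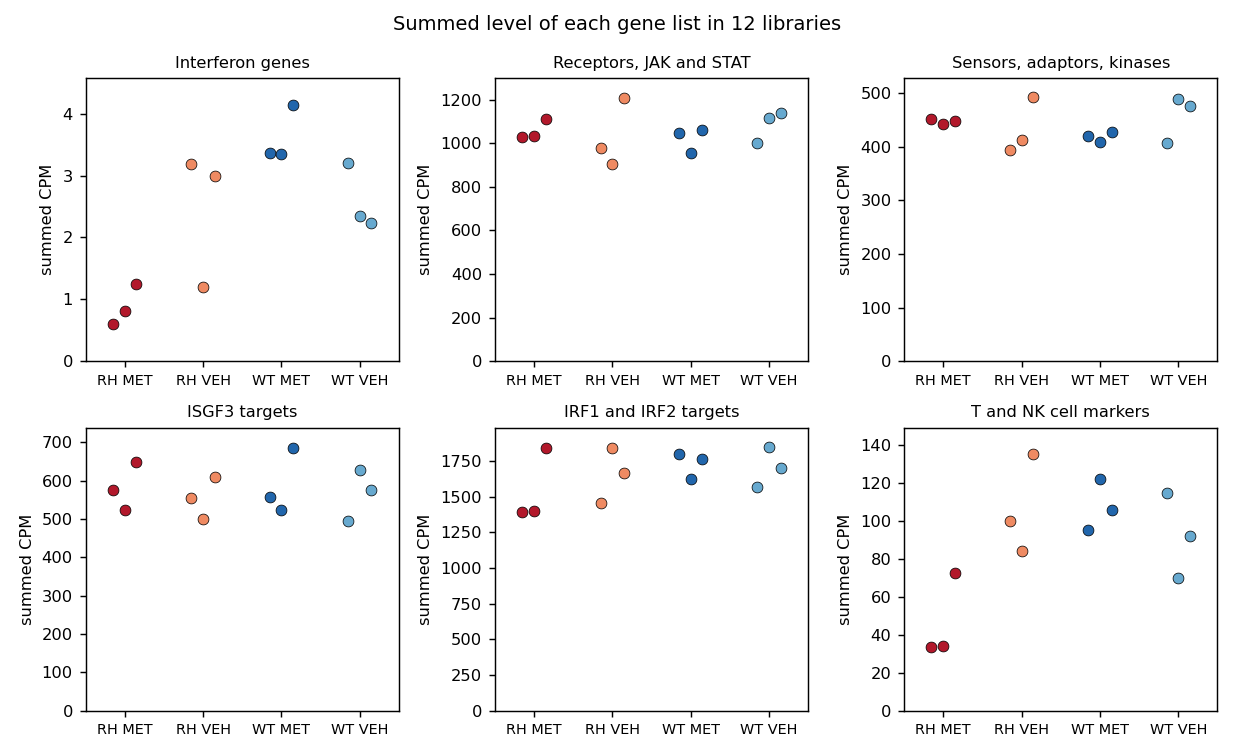
Summed CPM of 6 gene lists in the 12 libraries by group. RH MET libraries are lowest for the interferon genes (0.595 to 1.25 CPM, nearly all Ifng; the lowest RH VEH library is at 1.19) and for T and NK cell markers (33.4 to 72.5 CPM, with the lowest WT VEH library at 69.9), and for sensors, adaptors and kinases RH MET (443 to 451 CPM) lies above WT MET (408 to 428 CPM). The other 3 lists overlap between all groups. The gene B2m alone made up 686 to 1093 CPM of the IRF1 and IRF2 target sums, which ran from 1395 to 1845 CPM.

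The members were also compared with each other and with every tested gene by Pearson's r of log2 CPM over the 12 libraries, which share round and composition, as a description only. Irf1 and Irf2bpl had an r of 0.76, and 0.82 over the 10 libraries without RH VEH 2 and WT MET 2. Irf5 and Irf8 had 0.80 and 0.84. The 3 genes most like Irf1 were Ttll11 (r = 0.90), Cd83 (0.90), a surface protein of activated dendritic and B cells, and Map3k1 (0.87), a stress kinase. Those most like Irf2bpl were Epc1 (0.90), a NuA4 subunit, Myct1 (0.89) and Otud1 (0.85), a deubiquitinase.

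Irf8 was most like Gm13012 (0.94), Unc93b1 (0.94), which escorts nucleic acid-sensing Toll-like receptors, and Pkib (0.94). Irf5 was most like Camk2d (0.94), Mutyh (0.94) and Rasa4 (0.92). For Irf4 the leading genes were Pde4b (0.88), the cell cycle inhibitor Cdkn1a (0.87) and the endoribonuclease gene Zc3h12a (0.85). Irf3 was most like Ankle1, Mrm1 and Fancc (each 0.95), and without the 2 libraries rich in mitochondrial transcripts these were at 0.88, 0.88 and 0.86. Irf7 was most like Fam149b (0.91), Syap1 (0.91) and Eif3e (0.89). Irf9 was most like Gm15163 (0.92), Gm45235 (0.90) and Gm10509 (0.88). Irf2 was most like Cog3 (0.87), Usp37 (0.86) and Fbxo11 (0.85).

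Reads of overlapping genes can enter a count, and the sources used here do not state the strand setting. Irf2bpl and Irf4 overlap no other gene of the annotation. Irf1 overlaps the antisense gene Gm17334, which held 2 to 24 counts a library against 423 to 1448 for Irf1. Irf3 and Irf5 overlap the antisense genes Bcl2l12 and Tnpo3 over 1065 and 1045 bases, Irf7 overlaps Phrf1 over 45 bases and Irf9 overlaps Rnf31 on the same strand over 123 bases, so their levels are less certain. Gm20388 spans the whole of Irf8 on the same strand over 20337 bases and held 0 counts in every library, and how reads in that shared stretch were assigned is not stated.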

How the data were processed

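RNA of 12 libraries in 4 groups of 3 was sequenced as 150-base paired reads, per the labels' protocols. The authors deposited whole-number read counts per gene with no normalization; STAR 2.5, HTSeq 0.6.1 and mm10 are named, with no settings, per the submitters' processing notes. A smaller deposited table held 6 of the same libraries, and its other 2 columns matched no sample and were not used here.

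Counts were normalised by TMM and tested with edgeR 4.0.16 (quasi-likelihood, robust, filterByExpr) in R 4.3.3, fitting the 4 group means and round to all 12 libraries together. P-values were adjusted by Benjamini-Hochberg over 15003 genes in each of 7 comparisons, with a threshold of 0.05; the main tests were checked on simulated data. DESeq2 1.42.0, RLE size factors, no filter, no round term, each round alone and libraries left out were alternatives. Intervals for counts are Poisson 95% and cover counting error only. Correlations used log2 CPM with a prior count of 2.

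Members and gene lists were chosen with earlier results of these data known. All members are named; of each list, the 2 tested genes of smallest p in a comparison described, and for each member the 3 genes of highest r. Ifng per library and the related genes were added because a result turns on them. Sequences are RefSeq windows matched by symbol.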

Additional observations from a re-analysis of the deposited data

How the results depend on the processing

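Each result was recomputed under 21 alternatives. Of the 63 member log2 fold changes, none of them called as reported, 24 kept their sign in every alternative and 39 changed sign in at least 1. In the mean genotype comparison 0 members were called as reported, 2 by DESeq2 and 1 with no filter on low counts; all other counts of members called were 0. Irf1 and Irf2bpl kept a lower level in RH than in WT in 21 of 21 alternatives: the mean log2 fold change of Irf1 ran from −0.89 (round 1 alone) to −0.39 (round 2 alone), and −0.67 to −0.48 with 1 library left out; that of Irf2bpl ran from −0.92 to −0.66, and −0.88 to −0.66 with 1 library left out. The cause of the difference between tools and between rounds was not tested. A replicate block by column number in place of the round term gave −0.59 for Irf1 (edgeR adjusted p = 0.258) and −0.75 for Irf2bpl (adjusted p = 0.461 in the same edgeR fit), with 0 members called. Same-numbered libraries tended to deviate from their group means together: the correlation was over 0.1 in 14 of 18 pairs (range −0.01 to 0.49), and 10 of 12 libraries correlated best with one of their own number. All libraries numbered 1 were of round 1 and all numbered 3 of round 2. These deviations were not adjusted for round, so the correlations do not separate number from round. The labels do not say that a number marks a shared animal or batch, and 4 of the 18 pairs were not over 0.1, so the block was kept as an alternative. Irf2bpl and Irf4 held 50 and 46 counts in the shallowest library, which limits their precision, and 3 libraries a group limit every comparison.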
